A study of Homo sapiens with 8 samples.

Results

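The G1/S cyclins, cyclin-dependent kinases (CDKs) and CDK inhibitors described here were taken from a list of 10 genes, of which 8 were named on the array among 14884 genes in all. The 8 were the D-type cyclins CCND1, CCND2 and CCND3, the E-type cyclins CCNE1 and CCNE2, the kinases CDK4 and CDK6, and the inhibitor CDKN2A. The inhibitors CDKN1A and CDKN2B were not analysed here. Where a gene had several named probe sets, the one with the highest average across all 8 arrays stood for it, and CCND2 was the member with 2.

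RNA from A673 and SK-ES1 was hybridised to microarrays. Both are established lines of Ewing sarcoma, a tumour of bone and soft tissue in which EWSR1 is fused to an ETS-family gene, most often FLI1. The 4 groups were A673 with a short hairpin RNA against RING1B (shRING1B), A673 with a control hairpin against GFP (shGFP), SK-ES1 with shRING1B and SK-ES1 with shGFP. Each group had 2 arrays, and every array came from hairpin-carrying cells. RING1B is the catalytic ubiquitin ligase of Polycomb repressive complex 1, best known for keeping developmental genes silent, and the series title ties it to EWSR1-FLI1. The level of RNF2, which encodes RING1B, was not analysed here. The labels were thus not checked against the targeted gene, and how far RING1B was depleted in each line is not given by these values. The labels give no culture, clone, hairpin sequence, time or batch, and every p-value reflects the spread between arrays alone, which could be technical.

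The G1/S switch decides whether a cell starts to copy its DNA. D-type cyclins bind CDK4 or CDK6 and phosphorylate the retinoblastoma protein, which frees E2F factors to switch on S-phase genes, the E-type cyclins among them, and cyclin E with CDK2 then completes the step. CDKN2A encodes p16INK4A, which blocks CDK4 and CDK6, and p14ARF, which protects p53 from MDM2, and its locus is a classic target of Polycomb repression in other cell types.

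The deposited values are log2 levels, and array medians lay between 4.01 and 4.1. Across genes, the correlation was 0.991 to 0.994 within a group, 0.983 to 0.988 between hairpins in A673 and 0.991 to 0.992 between hairpins in SK-ES1. Of 8 Ewing sarcoma markers, 4 were measured, and their group means were 11.4 to 12.3 for CD99, 7.55 to 8.44 for the homeobox factor NKX2-2, 7.48 to 7.69 for STEAP1 and 4.35 to 5.47 for CCK. The 2 measured leukocyte markers, CD14 and LYZ, had group means of 3.03 to 3.53, below the median of all probe-set values of 4.06. The 3 endothelial markers measured had group means of 3.21 to 4.11 and the 3 epithelial markers 3.12 to 4.72, with EPCAM, at 4.53 to 4.72, above that median in every group. In RNA from whole cultures, fewer cells of a kind and less RNA per cell cannot be told apart.

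In A673, cyclin E1, cyclin D2 and CDKN2A were called lower under the RING1B hairpin. The CDKN2A call, at a limma adjusted p of 0.0477, was lost in 10 of 14 alternative settings. CCNE1 was 2.36-fold lower, CCND2 2.06-fold lower and CDKN2A 1.53-fold lower in shRING1B than in shGFP arrays. These are 3 of the 8 members, all lower, in a comparison where limma called 3.74% of all genes at an adjusted p under 0.05, with 3.04% lower and 0.705% higher. The members were chosen with earlier results of these data known, so their counts beside the shares of all genes are a description only. At an unadjusted p under 0.05, 5 of the 8 passed in A673, against 18.9% of all genes. The median change of the 8 members was -0.18 on the log2 scale, against 0.0118 over all genes, and 4 members lay above 0. Arrays of the hairpins did not overlap for 6 of the 8 members in A673, against 49.9% of all genes, and for 2 of the 8 in SK-ES1, against 37.2%. In SK-ES1 limma called 0 of the 8, in a comparison where 0.0672% of all genes were called, and 1 member, CDK6, had an unadjusted p under 0.05, against 7.36% of all genes.

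**Figure D1:**
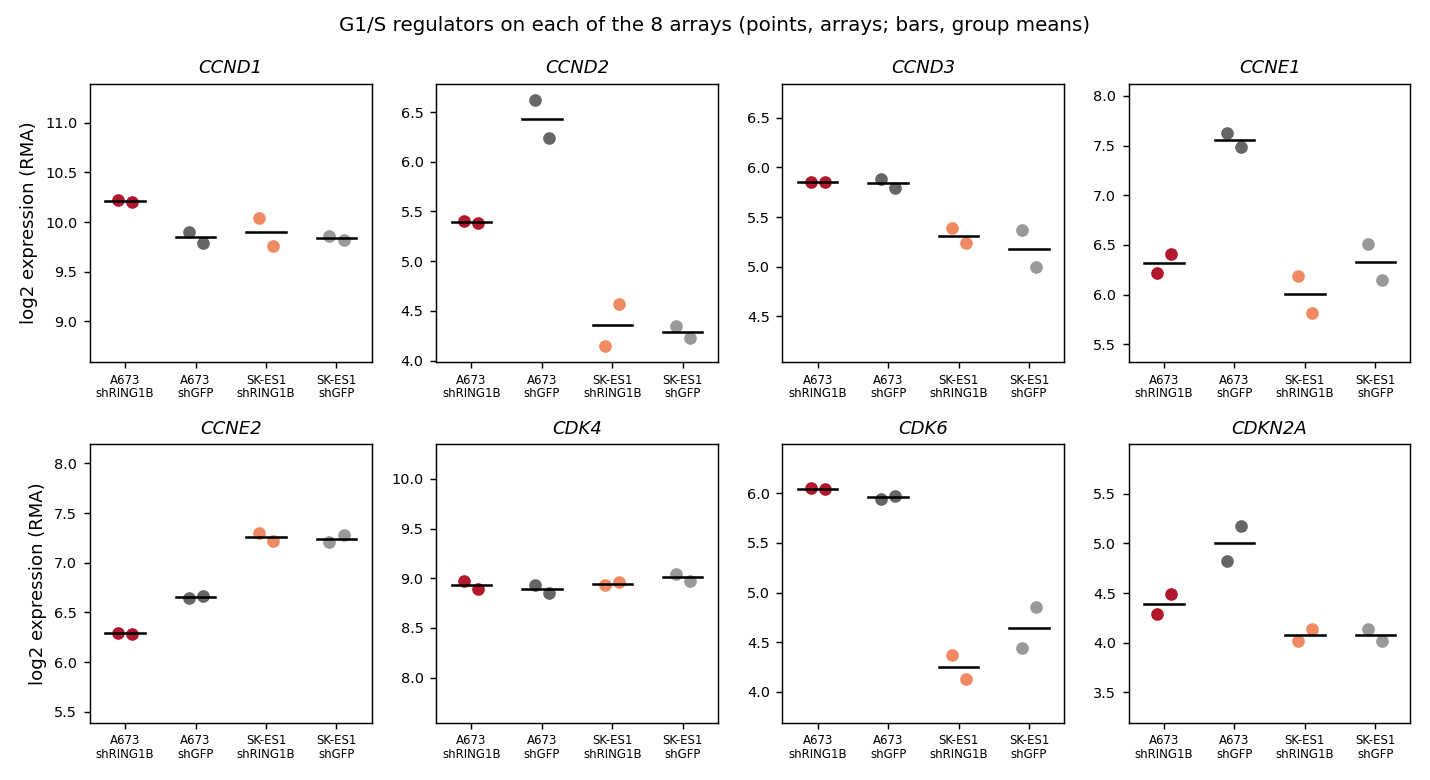
RMA log2 expression (y axis, each panel spanning about the same range) of the 8 members on each array, by cell line and hairpin (x axis), with points for arrays and bars for group means. CCNE1, CCND2 and CDKN2A were each highest in the A673 shGFP arrays, while CDK6 and CCND3 separated the lines whichever hairpin was present.

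Start-site sequences of CCNE1 and CDKN2A, both called lower in A673, show the letters around their transcript starts, from RefSeq on GRCh38.p14. They are printed 5′ to 3′ on the gene's strand. The CDKN2A call was lost in most alternative settings. Each holds 250 bases before and 50 after a start, and capitals mark the GC box GGGCGG on either strand. The CCNE1 window is chr19:29811741-29812040 on the plus strand. Those of CDKN2A are chr9:21995275-21995574, the upstream start, and chr9:21974808-21975107, the downstream start, both on the minus strand.
CCNE1: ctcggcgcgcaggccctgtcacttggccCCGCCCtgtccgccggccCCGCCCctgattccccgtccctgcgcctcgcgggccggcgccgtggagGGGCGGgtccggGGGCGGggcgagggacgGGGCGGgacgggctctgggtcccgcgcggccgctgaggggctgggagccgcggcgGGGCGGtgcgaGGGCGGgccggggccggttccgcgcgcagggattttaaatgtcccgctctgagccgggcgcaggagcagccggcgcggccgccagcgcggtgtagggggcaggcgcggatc
CDKN2A upstream start: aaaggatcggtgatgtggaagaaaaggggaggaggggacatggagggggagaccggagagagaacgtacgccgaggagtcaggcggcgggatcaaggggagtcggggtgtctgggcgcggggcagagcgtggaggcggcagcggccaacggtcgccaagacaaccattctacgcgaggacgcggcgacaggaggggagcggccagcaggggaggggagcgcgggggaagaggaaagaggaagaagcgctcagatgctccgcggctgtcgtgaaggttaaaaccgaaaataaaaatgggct
CDKN2A downstream start: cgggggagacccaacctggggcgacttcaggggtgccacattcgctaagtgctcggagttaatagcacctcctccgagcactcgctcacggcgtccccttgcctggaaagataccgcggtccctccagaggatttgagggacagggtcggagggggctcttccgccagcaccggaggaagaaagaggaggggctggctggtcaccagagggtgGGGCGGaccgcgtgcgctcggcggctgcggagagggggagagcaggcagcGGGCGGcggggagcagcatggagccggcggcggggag
The CCNE1 window holds 7 GC boxes and 47 CpG dinucleotides, more CpG than 97.6% of the 35116 windows of that length in the table, whose median is 14. The CDKN2A windows hold 0 and 2 GC boxes and 28 and 26 CpG dinucleotides. Of the 5 members with a window in the table, 6 of 9 windows hold a GC box, against 45% of all windows. No member window holds the E2F-type words TTTGGCGC, TTTCCCGC, TTTGCCGC or TTTCGCGC on either strand, which 3.31% of all windows hold. None holds the paired GGAAGGAA of ETS-type repeats, which 3.67% hold. With shares this low, finding none in 9 windows says nothing about E2F or ETS control. Near-matches and sites outside the windows were not searched for, and CCND1, CCND2 and CCNE2 had no window.

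CCNE1 encodes cyclin E1, the partner of CDK2 at S-phase entry. Its log2 level was 6.22 and 6.41 in the A673 shRING1B arrays, against 7.63 and 7.49 in the A673 shGFP arrays. In SK-ES1 it was 6.19 and 5.82 with shRING1B and 6.51 and 6.15 with shGFP. The A673 groups were clearly apart, the SK-ES1 groups overlapped, and the A673 shRING1B arrays lay within the range of the SK-ES1 shGFP arrays. The A673 change was -1.24 (standard error 0.164, limma adjusted p = 0.0034), and CCNE1 kept its call in all 14 alternative settings run (adjusted p up to 0.0311). In SK-ES1 the change was -0.33, with a 95% interval of -0.69 to 0.04 (adjusted p = 0.727). The SK-ES1 effect minus the A673 effect was 0.91, with an interval of 0.40 to 1.43, and was not called (adjusted p = 0.126), although it was with a trended, robust variance (adjusted p = 0.0325). Averaged over both lines, CCNE1 fell by 0.78 (adjusted p = 0.0101), the only member called for the mean effect, where 1.36% of all genes were called and 1.24% were called lower. That call was lost without SK-ES1 shRING1B replicate 2 (adjusted p = 0.0567).

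CCNE2 encodes cyclin E2, the close relative of cyclin E1 that also binds CDK2. Its level was 6.29 and 6.28 in A673 shRING1B, against 6.65 and 6.66 in A673 shGFP. SK-ES1 had 7.30 and 7.22 with shRING1B, against 7.21 and 7.28 with shGFP. The A673 groups did not overlap, and the SK-ES1 groups did. The A673 change of -0.37 missed the threshold (standard error 0.108, adjusted p = 0.0954) but passed it with a trended, robust variance (adjusted p = 0.0431). The SK-ES1 change was 0.01, with an interval of -0.23 to 0.25. CCNE2 lies on chromosome 8 in the stretch from ZBTB10 to SQLE, which was picked because earlier results of these data showed lower genes there, so its values are a description only. Of its 120 other measured protein-coding genes, 81 lay below 0 in A673. Their median there was -0.22, and 19 were called lower, where 3.04% of all genes were. In SK-ES1 71 of the 120 lay below 0, with a median of -0.02.

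CCND2 encodes cyclin D2. Its level was 5.40 and 5.38 in A673 shRING1B, against 6.62 and 6.24 in A673 shGFP. In SK-ES1 it was 4.15 and 4.57 with shRING1B, against 4.35 and 4.23 with shGFP. Both A673 shRING1B arrays lay below both A673 shGFP arrays and above all 4 SK-ES1 arrays. The A673 change was -1.04 with a standard error of 0.167 (adjusted p = 0.00977), and without A673 shGFP replicate 1 it was -0.85 and no longer called (adjusted p = 0.0576). In SK-ES1 it was 0.07, with an interval of -0.30 to 0.44. The difference between the effects was 1.11, with an interval of 0.59 to 1.64 (adjusted p = 0.0671). It passed the threshold with a trended, robust variance (adjusted p = 0.0248) and with dim genes left out (0.0385).

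The dimmer CCND2 probe set, tested after the data were seen, also fell in A673. It read 4.14 and 4.16 in A673 shRING1B, against 4.98 and 4.74 in A673 shGFP. Its change was -0.71 with a standard error of 0.136 (adjusted p = 0.0248 with all named probe sets fitted). The probe sets disagreed on the lines: under shRING1B the SK-ES1 minus A673 difference was -1.03 by the brighter probe set and 0.17 by the dimmer (adjusted p = 0.00107 and 0.405). Under shGFP both gave lower values in SK-ES1, by -2.14 and -0.81.

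CCND1 encodes cyclin D1, described in the field as abundant in Ewing sarcoma. It read 10.22 and 10.20 in A673 shRING1B, against 9.90 and 9.79 in A673 shGFP. In SK-ES1 it read 10.04 and 9.76 with shRING1B, against 9.86 and 9.82 with shGFP. The A673 shRING1B arrays were the highest of the 8, and the other 3 groups overlapped. The A673 change of 0.37 was not called (interval 0.09 to 0.65, adjusted p = 0.144), although it was with a trended, robust variance (adjusted p = 0.0194). The SK-ES1 change was 0.06, with an interval of -0.22 to 0.34.

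CCND3, which encodes cyclin D3, read 5.85 and 5.85 in A673 shRING1B, against 5.89 and 5.80 in A673 shGFP. It read 5.39 and 5.24 in SK-ES1 shRING1B, against 5.37 and 5.0 in SK-ES1 shGFP. Neither pair of groups separated. The changes were 0.01 in A673 (interval -0.30 to 0.32) and 0.13 in SK-ES1 (interval -0.18 to 0.44).

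CDK4 is a kinase partner of the D-type cyclins. It read 8.97 and 8.89 in A673 shRING1B, 8.94 and 8.85 in A673 shGFP, 8.93 and 8.96 in SK-ES1 shRING1B, and 9.05 and 8.97 in SK-ES1 shGFP. All 4 group means lay between 8.89 and 9.01. The changes were 0.04 in A673 (interval -0.21 to 0.28) and -0.07 in SK-ES1 (interval -0.31 to 0.18).

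CDK6, the other kinase partner of the D-type cyclins, read 6.05 and 6.04 in A673 shRING1B, against 5.94 and 5.97 in A673 shGFP. It read 4.37 and 4.13 in SK-ES1 shRING1B, against 4.45 and 4.85 in SK-ES1 shGFP. Neither pair overlapped, and the shRING1B arrays were the higher ones in A673 and the lower ones in SK-ES1. The change was 0.09 in A673 (interval -0.24 to 0.42) and -0.40 in SK-ES1 (interval -0.73 to -0.06, adjusted p = 0.611). The difference between the effects was -0.49 (adjusted p = 0.351).

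CDKN2A, the inhibitor gene introduced above, had low values. It read 4.29 and 4.49 in A673 shRING1B, against 4.83 and 5.18 in A673 shGFP. SK-ES1 had 4.02 and 4.14 with shRING1B and 4.14 and 4.02 with shGFP. All A673 arrays lay above the SK-ES1 arrays, which sat around the 4.06 median of all probe-set values. Whether the gene was detected above background was not tested, so these probe-set values are not evidence that either line makes CDKN2A transcript. The changes below are changes in those values. The A673 change was -0.61 with a standard error of 0.144 (adjusted p = 0.0477). Of 14 alternative settings, 10 ended this call, with an adjusted p of up to 0.344 without A673 shGFP replicate 2, while the direction was lower in all 14. In SK-ES1 the change was 0.00, with an interval of -0.32 to 0.32. The difference between the effects was 0.61 (interval 0.16 to 1.07, adjusted p = 0.232). The probe set is named for the whole gene, so p16INK4A and p14ARF transcripts were not told apart.

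**Figure D2:**
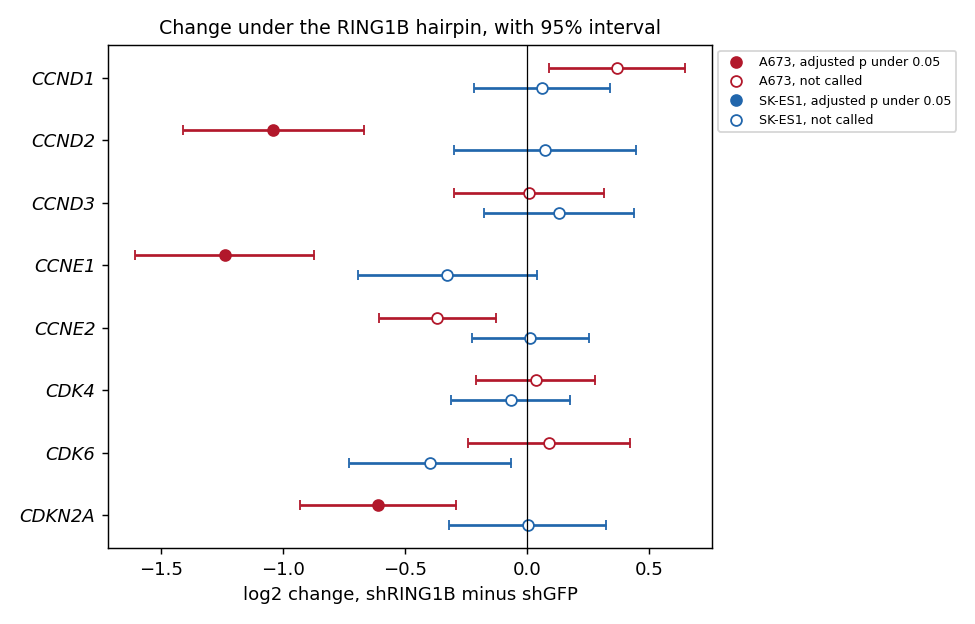
The log2 change under the RING1B hairpin (x axis, shRING1B minus shGFP) for the 8 members (y axis) in A673 and SK-ES1, with the limma 95% interval; filled points have an adjusted p under 0.05. The filled points are CCND2, CCNE1 and CDKN2A in A673, at -1.04, -1.24 and -0.61, and no SK-ES1 point is filled.

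The difference between the lines' responses was not called for any of the 8 by limma, in a contrast where 0.786% of all genes were called. The SK-ES1 effect was called above the A673 effect for 0.625% of all genes. At an unadjusted p under 0.05 it passed for 5 of the 8, namely CCND2, CCNE1, CCNE2, CDK6 and CDKN2A. Of all genes, 13.7% passed at that level.

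The lines themselves differed in most members. Under shGFP, 6 of the 8 were called between SK-ES1 and A673, where 30.7% of all genes were called and 17% were called lower. Of the 6, 5 were lower and 1 higher in SK-ES1, and arrays of the lines did not overlap for 7 of the 8, against 64.8% of all genes. CCND2 was lower in SK-ES1 by a log2 difference of -2.14 (adjusted p = 6.54e-06), CDK6 by -1.31 (9.41e-05), CCNE1 by -1.23 (0.000276), CDKN2A by -0.92 (0.000771) and CCND3 by -0.66 (0.00477). CCNE2 was higher by 0.59 (0.00209). CCND1 and CDK4 differed by -0.01 (interval -0.29 to 0.27) and 0.12 (interval -0.13 to 0.36). Of 4 fibroblast markers, 2 were measured, and both separated the lines in the same arrays. LUM, a matrix proteoglycan, averaged 5.67 in SK-ES1 shRING1B and 6.31 in SK-ES1 shGFP, against 3.11 in A673 shRING1B and 2.94 in A673 shGFP. DCN, another such proteoglycan, averaged 4.19 and 4.20 in the SK-ES1 groups, against 3.52 and 3.41 in the A673 groups. Their part in the differences between lines was not tested.

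Under shRING1B, 4 of the 8 were called between the lines, where 31.4% of all genes were called and 17.7% were called lower. Arrays did not overlap for 7 of the 8, against 63.7% of all genes. CDK6 was lower in SK-ES1 by -1.79 (adjusted p = 1.09e-05), CCND2 by -1.03 (0.000952) and CCND3 by -0.53 (0.0142), and CCNE2 was higher by 0.97 (7.7e-05). The CCND2 call is that of the brighter probe set, and the dimmer gave 0.17 (adjusted p = 0.405 with all named probe sets fitted). CCNE1 differed by -0.32 (interval -0.68 to 0.05, adjusted p = 0.181) and CDKN2A by -0.31 (interval -0.63 to 0.01, adjusted p = 0.139). These comparisons share arrays with the hairpin comparisons, and the test of whether a gap changed is the difference between effects. It is given above for CCNE1, CCND2, CDK6 and CDKN2A. For the others it was 0.38 for CCNE2 (adjusted p = 0.306), 0.12 for CCND3 (0.836), -0.31 for CCND1 (0.487) and -0.10 for CDK4 (0.827). The CCND3 call was lost without either A673 shRING1B array (adjusted p = 0.051 and 0.0533) or without SK-ES1 shRING1B replicate 2 (0.0956).

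**Figure D3:**
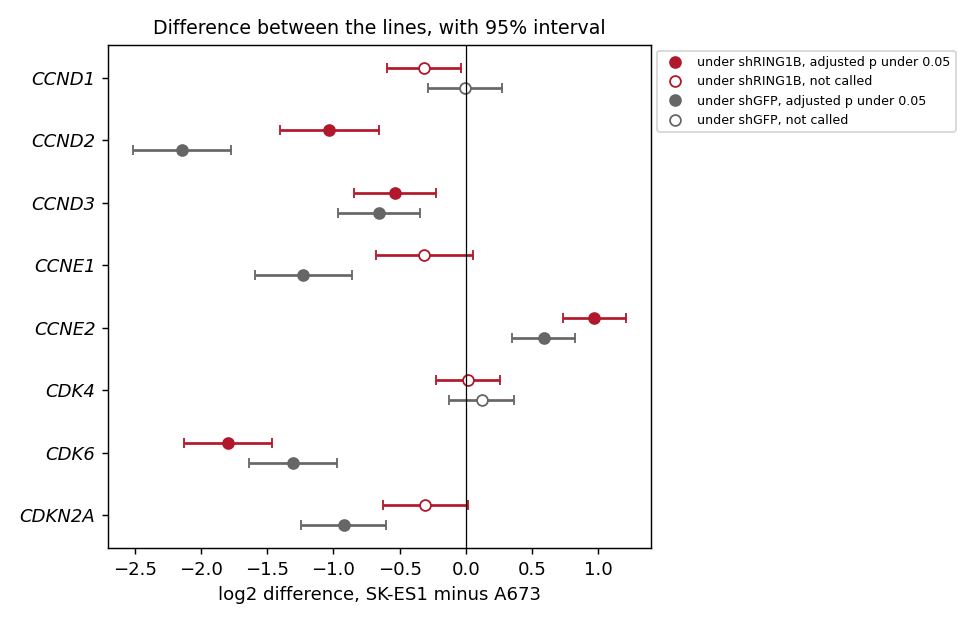
The log2 difference between the lines (x axis, SK-ES1 minus A673) for the 8 members (y axis) under shRING1B and under shGFP, with the limma 95% interval; filled points have an adjusted p under 0.05. CCNE1 stands at -0.32 under shRING1B and -1.23 under shGFP, and CDK6 at -1.79 under shRING1B and -1.31 under shGFP.

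The members can be ordered by group. CCND2, CCNE1 and CDKN2A had their highest mean in A673 shGFP, with 6.43 ± 0.268, 7.56 ± 0.0993 and 5.0 ± 0.247 (SD, n = 2). For CCND2 and CDKN2A, A673 shRING1B came next, with 5.39 ± 0.0138 and 4.39 ± 0.146, and the SK-ES1 groups followed with overlapping arrays. For CCND2 this order is that of the brighter probe set, since the dimmer read 4.14 and 4.16 in A673 shRING1B, below 4.26 and 4.38 in SK-ES1 shRING1B. For CCNE1 the SK-ES1 shGFP mean of 6.33 ± 0.253 and the A673 shRING1B mean of 6.32 ± 0.136 could not be separated. CDK6 and CCND3 ran from both A673 groups, which differed by less than 0.1 in mean, down to both SK-ES1 groups. CCNE2 ran the other way, with both SK-ES1 groups highest and A673 shRING1B lowest.

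Chromosomal neighbours were set beside the 3 members called lower in A673, taking the 5 nearest measured protein-coding genes on each side in RefSeq order. Among them, the CDKN2A call was lost in most alternative settings. Around CCND2, none of 10 neighbours was called by limma in A673, and their median change was -0.02 with a range of -0.37 to 0.42. TIGAR, a p53-induced regulator of glycolysis that lies next to CCND2, had -0.16 (adjusted p = 0.576). The CCND2 change was below that of each of these 10.

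Around CCNE1 the sides differed. The 5 genes after it, from ZNF536 to PDCD5, had changes between -0.01 and 0.17 in A673, and VSTM2B, the nearest gene before it, had 0.14. The genes beyond VSTM2B lie across the centromere in a cluster of zinc-finger genes, of which ZNF681, ZNF675 and ZNF91 fell, with changes of -2.40, -1.79 and -1.65, and ZNF254 had -0.57 (adjusted p = 0.114).

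Around CDKN2A no neighbour was called in A673, but 6 of 10 lay below 0, with a median of -0.21. DMRTA1, a DMRT-family transcription factor gene, had -0.74 (adjusted p = 0.0513), TUSC1 -0.46 (0.069) and MTAP, the enzyme that salvages methylthioadenosine, -0.38 (0.187). The noncoding CDKN2B-AS1, known as ANRIL and transcribed antisense in the locus, had -0.26 (0.321). In SK-ES1 the medians around CCND2, CCNE1 and CDKN2A were 0.00, -0.06 and -0.04, and limma called no neighbour.

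**Figure D4:**
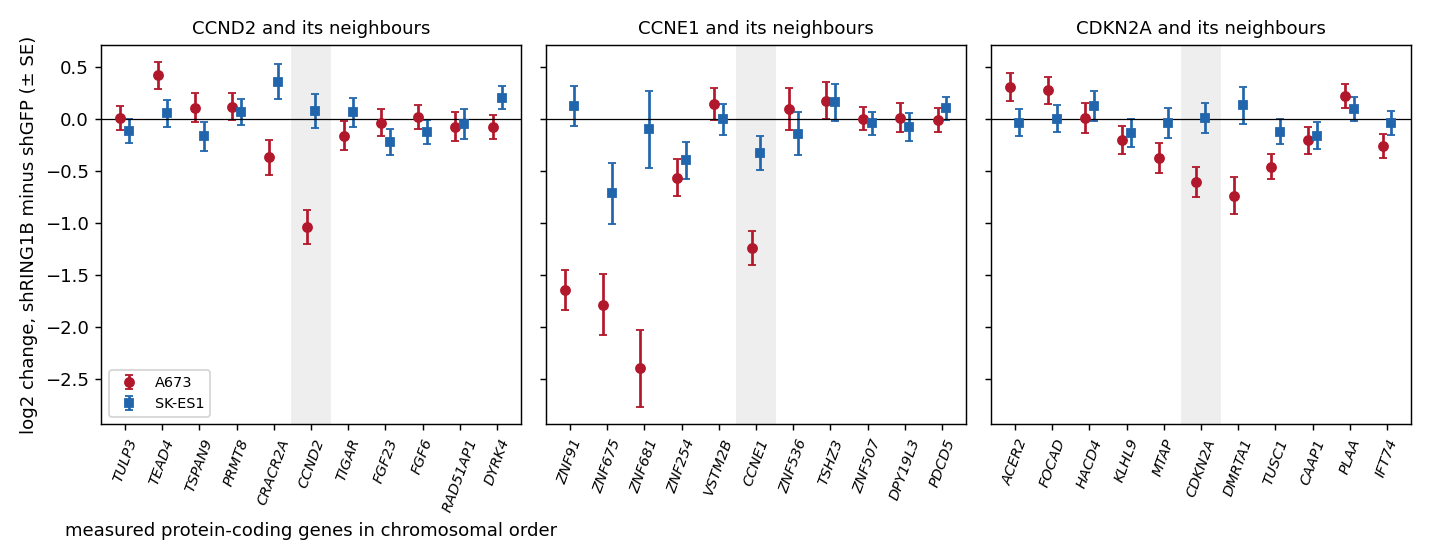
The log2 change (y axis, shRING1B minus shGFP, with the limma standard error) of CCND2, CCNE1 and CDKN2A (shaded) and of the 5 nearest measured protein-coding genes on each side, in chromosomal order (x axis), in A673 and SK-ES1. In A673, CCND2 stands below all 10 of its neighbours and CCNE1 below VSTM2B and the 5 genes after it but above ZNF91, ZNF675 and ZNF681, while DMRTA1 and MTAP beside CDKN2A have values of -0.74 and -0.38.

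Some genes had profiles close to those of CCNE1, CCND2 and CDKN2A, the members called lower in A673, of which CDKN2A was the least stable call. Likeness was the root mean square distance between profiles over the 8 arrays, each centred on its own mean, among protein-coding genes, and it describes these arrays only. For CCNE1, whose own profile has a root mean square of 0.612, the nearest were QPRT, an enzyme of NAD synthesis (0.158), NAP1L3, a nucleosome assembly family gene (0.174), and the transcription factor EBF2 (0.18). For CCND2 (0.887) they were SKAP2 (0.174), the retinoic acid binding gene CRABP2 (0.187) and KLHL7 (0.195). For CDKN2A (0.392) they were DOCK5 (0.0466), PDLIM3 (0.058) and TAX1BP1 (0.0792), small distances beside a profile that itself moved little.

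Around the members, 8 lists of pathway genes, chromosome 9 neighbours and control genes held 74 measured genes, of which few were called. In A673 limma called 3 of them (4.05%, against 3.74% of all genes), and 22 (29.7%) had an unadjusted p under 0.05, against 18.9% of all genes. In SK-ES1 it called 0, against 0.0672% of all genes, with 1 (1.35%) at an unadjusted p under 0.05, against 7.36% of all genes.

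A list of 13 other cyclins, CDKs and inhibitors had 6 measured genes, namely CDK1, CDK2, CDK7, CCNA2, CCNC and CCNH. Of the 6, 0 were called by limma in either line, against 3.74% of all genes in A673 and 0.0672% in SK-ES1. At an unadjusted p under 0.05, 1 passed in A673 and 0 in SK-ES1, against 18.9% and 7.36% of all genes. CDK2, the partner of cyclin E, had 0.15 in A673 and 0.07 in SK-ES1, and CCNA2, cyclin A2, had -0.17 and -0.08. CCNC, cyclin C, had -0.32 in A673 (adjusted p = 0.182).

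Of 10 retinoblastoma-family and E2F-DP genes, TFDP2, a dimer partner of E2F factors, fell by 0.53 in A673 (adjusted p = 0.033). That call was absent in 7 of 14 alternatives, and without A673 shGFP replicate 2 the adjusted p was 0.239. E2F1, E2F2 and E2F8 had 0.49, 0.47 and 0.52 in A673, none called (adjusted p = 0.0788, 0.0563 and 0.0712). The median was 0.17 in A673, where 5 of the 10 had an unadjusted p under 0.05, against 18.9% of all genes. In SK-ES1 the median was -0.01. There, 0 were called, against 0.0672% of all genes, and 0 had an unadjusted p under 0.05, against 7.36%.

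Of 16 S-phase genes driven by E2F, CDT1, a factor that licenses replication origins, rose by 0.53 in A673 (adjusted p = 0.0449). That call was absent in 9 of 14 alternatives, and without A673 shGFP replicate 2 the adjusted p was 0.332. All 16 lay above 0 in A673, with a median of 0.15 against 0.0118 over all genes and 0.11 over the 5 control genes. Of these control genes, 4 lay above 0. At an unadjusted p under 0.05, 6 of the 16 passed in A673, against 18.9% of all genes. CDC45 and MCM10 had 0.50 and 0.37 in A673. In SK-ES1 15 of 16 lay above 0, with a median of 0.10 against -0.01 over the control genes. There, 0 of the 16 were called, against 0.0672% of all genes, and 0 had an unadjusted p under 0.05, against 7.36%.

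Of 14 genes tied to the turnover or activity of cyclins, CDKs and their inhibitors, 0 were called by limma in either line. Of all genes, 3.74% were called in A673 and 0.0672% in SK-ES1, so few calls would be looked for in a list of this size. At an unadjusted p under 0.05, 1 passed in A673 and 0 in SK-ES1, against 18.9% and 7.36% of all genes. Of 12 genes upstream of cyclin D, 0 were called in either line, against the same 3.74% and 0.0672% of all genes. At an unadjusted p under 0.05, 3 passed in A673 and 1 in SK-ES1, against 18.9% and 7.36% of all genes. MYC, a transcription factor that promotes G1/S entry, had -0.29 in A673 (adjusted p = 0.197) and 0.13 in SK-ES1. FOSL1, a FOS-family factor, had 0.76 in A673 (adjusted p = 0.178).

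Of 8 p53 targets, RRM2B, a ribonucleotide reductase subunit, fell by 0.94 in A673 (adjusted p = 0.00577). It lies in the same stretch of chromosome 8 as CCNE2, and was not called without A673 shGFP replicate 2 (adjusted p = 0.0816). The median of the 8 in A673 was -0.34, with 7 below 0 and 4 at an unadjusted p under 0.05, against 18.9% of all genes. In SK-ES1 the median was 0.01, with 0 called, against 0.0672% of all genes, and 0 at an unadjusted p under 0.05, against 7.36%. None of 5 control genes was called in A673 or SK-ES1 by limma or at an unadjusted p under 0.05.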

How the data were processed

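The deposited values are log2 expression values, 1 for each of 48144 probe sets on each of 8 arrays. RMA and limma are the tools in the submitters' processing notes, with no versions. RMA includes quantile normalization, which would hide a shift common to most genes. The genome build and annotation used upstream are not given in the sources used here. Signal over background was not measured. Precision is limited by the number of arrays.

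A platform annotation table named 16098 probe sets with 1 symbol, 0 with several and left 32046 unnamed here, giving 14884 genes with symbols updated through RefSeq. Groups follow the line and hairpin in the labels, and replicate numbers only name arrays.

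Using limma 3.58.1 (R 4.3.3), 4 group means were fitted over all arrays (4 residual and 6 prior degrees of freedom). P-values are two-sided and Benjamini-Hochberg adjusted over the 14884 genes of a contrast, and a gene is called at an adjusted p under 0.05. The script was tested on simulated data. Tables were made with pandas 2.3.3 in Python 3.11.15.

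Named genes are the members, list genes with the smallest p (up to 4 per hairpin contrast and 2 for the lines), neighbours and the 3 nearest profiles. Members and lists were chosen with earlier results of these data known. Alternatives were quantile normalization repeated, cyclic loess, a trended and robust variance, a fit of 2 groups alone, the mean of probe sets, dim genes left out and each array left out. Fitting all named probe sets was added after seeing the data.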

Additional observations from a re-analysis of the deposited data

How the results depend on the processing

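Member changes were recomputed in 662 alternative results, of which 616 kept their direction and side of the threshold, 15 lost a call, 9 gained one and 22 changed sign. No paired analysis was possible because the labels carry no replicate numbers that link arrays. With a trended, robust variance 5 members were called in A673, 2 for the difference between lines and 2 for the mean effect. With dim genes left out it was 1 and 2 for these last contrasts. In each of these contrasts the same setting also called more of all genes than reported, by the counts in the next paragraph. Without 1 array, the members called were 2 to 2 in A673, 0 to 0 in SK-ES1, 0 to 0 for the difference, 0 to 1 for the mean effect, 6 to 6 between lines under shGFP and 3 to 5 under shRING1B.

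Over all genes, the count in A673 was 1052 with a trended, robust variance and 213 in a fit of the 2 groups alone, against 557 as reported. In SK-ES1 it was 34 with that variance and 21 with dim genes left out, against 10. For the difference it was 281 and 179, against 117, and for the mean effect 481 and 337, against 202. Without 1 array the counts were 101 to 434 in A673, 2 to 7 in SK-ES1, 0 to 72 for the difference, 51 to 158 for the mean effect, 3160 to 4674 between lines under shGFP and 3303 to 4476 under shRING1B. Of the 74 measured genes of the 8 lists, control genes and chromosome 9 neighbours included, 13 were called in A673 with that variance, 1 in the fit of the 2 groups alone and 7 with dim genes left out. The trended variance gave 1 for the difference and 8 for the mean effect, and leaving out dim genes gave 1 and 2. Without 1 array it was 0 to 2 in A673, 0 to 0 in SK-ES1, for the difference and for the mean effect, 15 to 25 between lines under shGFP and 20 to 33 under shRING1B.

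Changes of sign were, except for CCND2, in values that limma did not call. With quantile normalization repeated, CCND1 between lines under shGFP was 0.0021 and CDKN2A in SK-ES1 -0.0352, and with cyclic loess CDKN2A in SK-ES1 was -0.0478. The dimmer CCND2 probe set gave 0.17 between lines under shRING1B, where the brighter was called at -1.03. Without 1 array, the SK-ES1 changes ranged from -0.0772 to 0.199 for CCND1, -0.139 to 0.284 for CCND2, -0.0525 to 0.314 for CCND3, -0.0262 to 0.0539 for CCNE2 and -0.0602 to 0.0652 for CDKN2A. The A673 changes ranged from -0.0373 to 0.0531 for CCND3 and -0.00829 to 0.0804 for CDK4. The mean effects ranged from -0.0223 to 0.161 for CCND3 and -0.0374 to 0.00701 for CDK4. The CCND3 difference ranged from -0.0605 to 0.306. Between lines CCND1 under shGFP ranged from -0.0665 to 0.0509 and CDK4 under shRING1B from -0.0232 to 0.0556. The cause of these changes was not tested.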

Other observations

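The lines also differed in genes around the G1/S members under shGFP. Of the 74 measured genes of the 8 lists, which include 5 control genes and 3 genes beside CDKN2A, limma called 24 between SK-ES1 and A673 (32.4%, against 30.7% of all genes). By direction, 13.7% of all genes were called higher and 17% lower in SK-ES1. Of 14 genes tied to the turnover or activity of cyclins, CDKs and their inhibitors, 1 was called higher and 3 lower in SK-ES1. AMBRA1, which targets D-type cyclins for destruction, was lower in SK-ES1 by a log2 difference of -1.11 (adjusted p = 5.59e-05). FBXO4, an F-box protein, was higher by 0.91 (0.000294). Of 12 genes upstream of cyclin D, 2 were called higher and 4 lower in SK-ES1, with a median of -0.11. The 2 higher were MYC, by 0.87 (0.000209), and ETS2, an ETS-family factor, by 1.29 (0.000227). Beside CDKN2A, DMRTA1 and MTAP were lower in SK-ES1 by -1.72 (4.82e-05) and -1.15 (0.000165).

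Of 10 retinoblastoma-family and E2F-DP genes, 1 was called in each direction, where 13.7% of all genes were called higher and 17% lower. E2F7, a repressive member, was higher in SK-ES1 by 0.75 (adjusted p = 0.00079) and E2F8 lower by -0.41 (0.0476). Of 16 S-phase genes, 0 were called higher and 2 lower, against the same shares of all genes. CDC6, a loader of the replicative helicase, was lower by -0.56 (0.00428) and MYBL2, a cell-cycle transcription factor, by -0.49 (0.00862). Of 8 p53 targets, 2 were called higher and 3 lower, against the same shares. TP53I3 was higher by 1.36 (0.000131) and RRM2B lower by -0.79 (0.00155). Of 5 control genes, GAPDH was lower by -0.58 (0.0038) and TBP higher by 0.42 (0.0128).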
